A study of Sus scrofa with 8 samples.

Results

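The genes described here encode pig cytochrome P450 enzymes of families 1 to 4 and enzymes of the main conjugation families. The latter are the UDP-glucuronosyltransferases, glutathione S-transferases, microsomal glutathione S-transferases and sulfotransferases. The genes were chosen by symbol alone, after the isoform and extension rows of each gene had been summed. Of the 30282 genes in the table, 41 matched. Of these, 21 are P450 genes and 20 are conjugation genes. RNA came from porcine pancreatic ductal organoids (PPDO), three-dimensional cultures grown from hand-picked pancreatic ducts of German landrace pigs, some of them carrying an INS-eGFP reporter. Of the 4 lines, Em came from an embryonic, EPN1 and EPN2 from early postnatal and LPN from a late postnatal pancreas, and each line stands for a single animal. Each line was cultured for a week in both complete and differentiation medium, and with 1 culture per line and medium there were 8 libraries. The differentiation medium lacked the prostaglandin E2, WNT3a, R-spondin1, noggin, FGF10, EGF and gastrin of the complete medium. According to the paper, an L-WRN conditioned medium supplement took the place of WNT3a, R-spondin1 and noggin in PPDO maintenance. Whether the complete medium of these 8 libraries held that supplement is not stated. N2, B27 without vitamin A, the TGF-beta receptor inhibitor A83-01, Y-27632, nicotinamide, N-acetyl-L-cysteine and a basement membrane matrix were common to all cultures.

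P450 enzymes of these families are membrane-bound haem proteins that insert an oxygen atom into drugs, foreign chemicals, fatty acids, steroids and vitamin D, using electrons passed on by a reductase. Conjugation enzymes then attach glucuronic acid, glutathione or sulfate, which makes most products more water-soluble and lets transporters carry them out of the cell. Both groups are best known from liver and intestine, and several members are known from other epithelia, where receptors for foreign chemicals, bile acids and lipids set their transcription.

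Levels are given as CPM, the count of a gene relative to the library total, scaled between libraries by the TMM method and not divided by gene length, so that they can be compared between libraries for a gene but not between genes. Library totals were 40553593 to 47910657 counts, and a count of 0 allows a level of up to 0.0619 to 0.0731 CPM, which covers counting error only. All 10 duct markers exceeded 3 counts in every library, with KRT7 at 522 to 2837 CPM, but their levels varied. CFTR ranged from 2.97 CPM in EPN2 in differentiation medium to 338 CPM in Em in complete medium. KRT8 ranged from 425 CPM in EPN2 to 4906 CPM in Em, both in differentiation medium. The acinar genes CPB1 and PNLIP had no count in any library. Of the hepatocyte genes, ALB stayed at 9 to 22 counts in all 8 libraries and FGA had none, whereas SERPINA1 reached 389 CPM in Em and 298 CPM in EPN1 in differentiation medium. The 41 genes together took up 0.0903% to 0.239% of a library's counts.

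Whether the medium altered these genes was asked first, by comparing the 4 libraries in differentiation medium with the 4 in complete medium. Of the 41 genes, 29 had enough counts to be tested. In the edgeR quasi-likelihood test with the medium as its only term, 4 of these 29 genes passed an adjusted p of 0.05, which is 13.8% against 6.97% of all 14475 genes tested. CYP2W1, CYP3A29 and CYP2J34 rose, so that 10.3% of the genes tested were called higher against 2.87% of all genes. CYP2D25 fell, which is 3.45% called lower against 4.1% of all genes. All 4 were P450 genes, and none of the 12 conjugation genes tested was called in edgeR with the medium as the only term, where GSTO1 was the 1 gene with an unadjusted p under 0.05.

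Because each line was grown in both media, the line could also be entered as a block, which takes the differences between animals out of the error. With that block 10 of the 29 genes were called, 34.5% against 19.9% of all genes. The 5 genes that rose were CYP2W1, CYP3A29, CYP2J34, CYP4B1 and SULT1B1, which is 17.2% against 9.48% of all genes. The 5 that fell were CYP2D25, CYP2S1, CYP2R1, CYP4F22 and GSTO1, again 17.2%, against 10.4% of all genes. On 3 lines the block fit called none of the 41 genes without LPN and none without EPN1, where 22 and 8 genes of the whole table were called, while the log2 fold change of CYP2D25 was -2.88 and -2.91 and that of CYP2S1 -1.86 and -1.70 in these fits. It called 8 without Em and 11 without EPN2, where 1730 and 2989 genes of the whole table were called. DESeq2 called 7 of 31 genes that it gave an adjusted p with the medium only, against 18.4% of all genes, and 16 of 33 with the block, against 33.6%. With so few members, the shares above the background are a description of the list and were not tested.

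The fold changes of the P450 genes were wide. Their median absolute log2 fold change was 1.30, compared with 0.40 for the conjugation genes and 0.39 for all genes tested. The signed median over the 29 genes was 0.05, close to the 0.01 of all genes, because rises and falls were similar in number. Setting CYP2W1 at the bound described below leaves these medians as they are, at 0.05 for the signed value over the 29 genes and 1.30 for the absolute value of the P450 genes. In bulk RNA, fewer cells that express a gene and less RNA per cell cannot be told apart, and this holds for each comparison below.

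**Figure D1:**
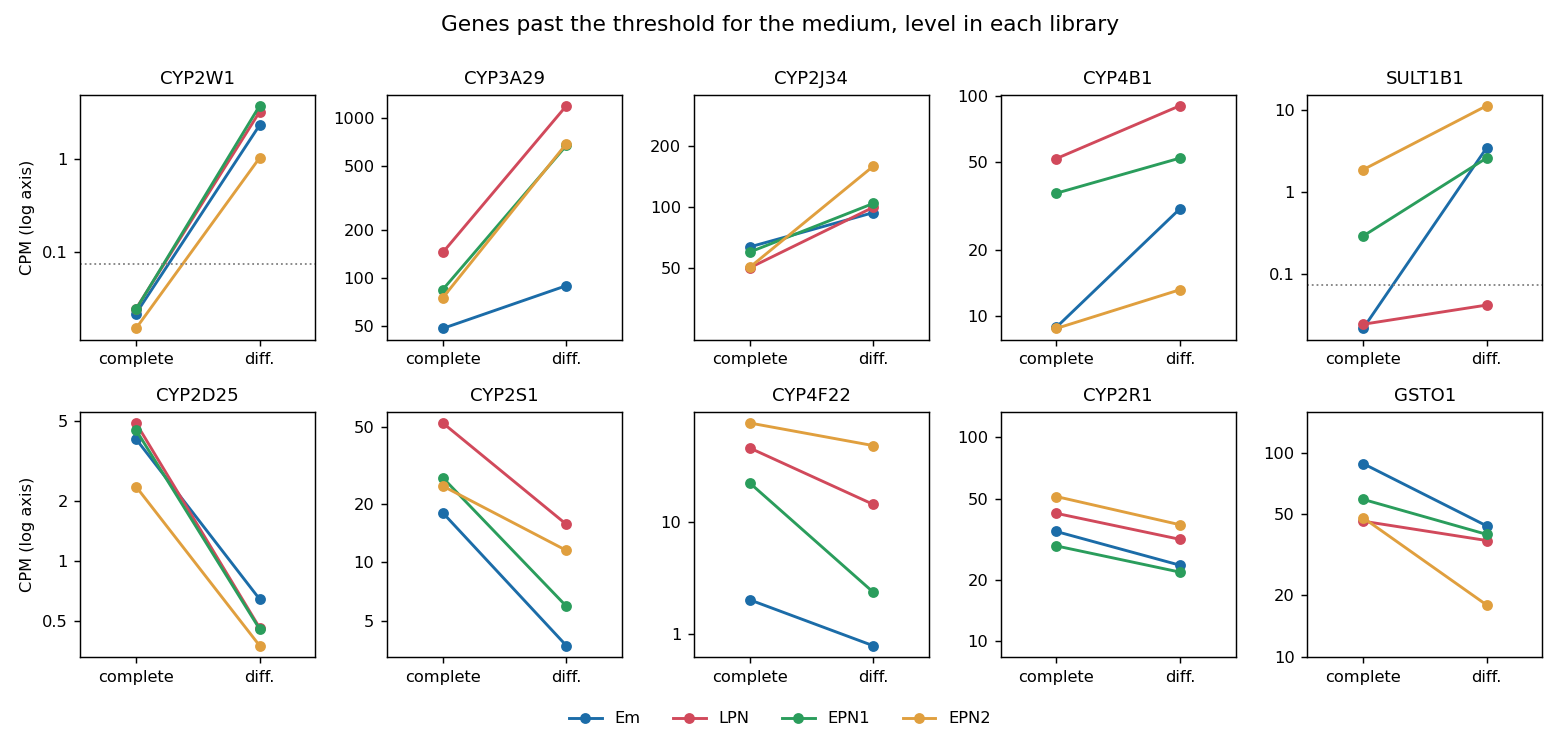
Level in CPM (log axis) of the 10 genes past the threshold with the medium only or with the line as a block, in complete and in differentiation medium (diff.), with 1 point per library and a connecting line per PPDO line. The upper row holds the 5 genes called higher in differentiation medium, of which SULT1B1 stayed under the limit in LPN, and the lower row the 5 called lower, the dotted line marks the level that a count of 0 allows, and the EPN2 library with 0 counts of CYP2W1 is drawn below those with 1 count.

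CYP3A29 is a CYP3A enzyme of the pig, related to the human CYP3A enzymes that oxidise many medicines and steroids. It lies on chromosome 3 at 6738502 to 6778121 of Sscrofa11.1. In complete medium its level was 48.3 CPM in Em, 144 in LPN, 84.6 in EPN1 and 75.2 in EPN2, and in differentiation medium it was 89.6, 1199, 676 and 694 CPM in the same order. All 4 lines rose, and the media overlapped only because Em in differentiation medium stayed below LPN in complete medium. The mean went from 88.2 ± 40.6 to 664 ± 453 CPM (SD, n = 4 each), a log2 fold change of 2.91 ± 0.71 (SE) with an adjusted p of 0.0490 in edgeR, and of 2.58 with an adjusted p of 0.0220 with the line as a block. Within lines the log2 change was 0.89 in Em, 3.05 in LPN and 3.20 in EPN2, with EPN1 close to LPN. The call with the medium only is marginal: it was kept without Em in differentiation medium, at an adjusted p of 0.0177, and lost without any other library, at 0.0717 to 0.130. RefSeq places CYP3A22 and CYP3A46 within 1 Mb of it, and neither symbol is among those of the count table, so reads from near-identical copies may be counted under CYP3A29.

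CYP3A29 also took a larger share of the counts of the 41 genes in differentiation medium. In complete medium it held 2.54% to 14.6% of them, and in differentiation medium 38.8% to 52.0% in LPN, EPN1 and EPN2 but 4.10% in Em. The P450 genes together held 67.1% of the counts of the 41 genes in LPN in differentiation medium, from 47.9% in complete medium. In Em the P450 share went the other way, from 27.4% to 17.3%. There CYP1A1 went from 12867 to 866 counts and GSTA1 from 34909 to 66178, while CYP3A29 went from 2231 to 4343. All these shares are of counts not divided by gene length.

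CYP2W1 is a P450 enzyme known from the fetal gut and from colorectal tumours. It was at 1 count in Em, LPN and EPN1 and at 0 in EPN2 in complete medium. In differentiation medium it had 112 counts in Em, 154 in LPN, 165 in EPN1 and 44 in EPN2, or 2.31, 3.21, 3.73 and 1.03 CPM. The groups did not overlap, and each library in differentiation medium was above the limit while none in complete medium was. Against a floor of 3 counts per library the mean was at least 37.0-fold higher in differentiation medium, and the bound ranged from 31.4 to 44.4 when any library in differentiation medium was left out. The adjusted p in edgeR was 0.00698, or 0.00658 with the line as a block, and it remained below the threshold in all 8 fits that left out a library.

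CYP2J34 belongs to the CYP2J subfamily, whose human member epoxidises arachidonic acid, and lies on chromosome 6 at 152468950 to 152496516. Complete medium gave 63.8 CPM in Em, 50.3 in LPN, 60.1 in EPN1 and 50.6 in EPN2. Differentiation medium gave 94.1, 99.9, 104 and 159 CPM, so that the groups did not overlap and EPN2 stood highest. The log2 fold change was 1.02 ± 0.19 (SE), with an adjusted p of 0.0258 in edgeR and of 0.0266 with the line as a block. The call was lost without LPN or EPN1 in either medium, at adjusted p-values of 0.0597 to 0.0859. Its summed count was not whole in any of the 8 libraries.

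CYP2D25 is described in pig as a microsomal vitamin D 25-hydroxylase, and CYP2R1 is the principal enzyme of that reaction in mammals. CYP2D25 lies on chromosome 5 at 6539021 to 6543643. It fell from 4.07 CPM in Em, 4.90 in LPN, 4.52 in EPN1 and 2.35 in EPN2 to 0.640, 0.459, 0.453 and 0.374 CPM. The lowest library in complete medium was above the highest in differentiation medium, although the latter rest on 16 to 31 counts each. The log2 fold change was -3.03 ± 0.35 (SE), with an adjusted p of 0.00842 in edgeR, and the call was kept in all 8 fits without a library. CYP2R1, on chromosome 2 at 44375432 to 44394122, moved in the same direction but far less, from 34.4, 42.3, 29.3 and 51.2 CPM in Em, LPN, EPN1 and EPN2 to 23.5, 31.5, 21.7 and 37.2 CPM. Each line fell by a similar amount, -0.42 to -0.55 on the log2 scale, while the lines themselves differed, so the groups overlapped. With the medium only the log2 fold change of CYP2R1 was -0.46 with an adjusted p of 0.244 in edgeR, and with the line as a block it was -0.47 with an adjusted p of 0.0290, a call that was lost without any 1 of the 4 lines.

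CYP2S1 is an extrahepatic P450 enzyme of epithelia. It fell from 18.0 CPM in Em, 52.4 in LPN, 27.3 in EPN1 and 24.8 in EPN2 to 3.71, 15.7, 5.93 and 11.5 CPM, with no overlap between the media. The log2 fold change was -1.73 ± 0.51 (SE) with an adjusted p of 0.0795 in edgeR, and -1.83 with an adjusted p of 0.0131 with the line as a block. The blocked call was kept without Em or EPN2 and lost without LPN, at 0.0775, or EPN1, at 0.0743.

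The 5 other CYP2 genes tested were CYP2A19, CYP2B22, CYP2C42, CYP2E1 and CYP2U1, and none was called in either edgeR fit. CYP2E1, which oxidises ethanol, lay at 36.7 to 53.7 CPM in complete and 41.9 to 46.2 CPM in differentiation medium, with a log2 fold change of -0.02 ± 0.13 (SE). CYP2A19 and CYP2B22, neighbours on chromosome 6 whose families oxidise coumarin-like and drug substrates, were highest in EPN1 in differentiation medium at 26.7 and 8.35 CPM. CYP2A19 lay lower in differentiation medium in LPN, at 2.69 CPM from 4.90, and both genes did in EPN2, where CYP2A19 went from 16.1 to 8.06 CPM and CYP2B22 from 2.55 to 1.14 CPM. CYP2U1, a fatty acid hydroxylase, lay lower in 3 of 4 lines.

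CYP2C42, of the drug-metabolising CYP2C subfamily, was singled out after its values had been seen. It lies on chromosome 14 at 106666445 to 106701809. In complete medium it was at 1.43 CPM in Em, 0.512 in LPN, 0.794 in EPN1 and 1.24 in EPN2. In differentiation medium Em and EPN1 reached 41.1 and 23.8 CPM, LPN 3.44 CPM and EPN2 1.47 CPM. The groups did not overlap, but the change within a line ranged from 0.23 in EPN2 to 4.83 in EPN1 on the log2 scale. CYP2C42 had a log2 fold change of 4.13 ± 1.05 (SE), and the adjusted p was 0.0547 in edgeR and 0.0619 with the line as a block, so that it was not called there, while DESeq2 called it with an adjusted p of 0.0001 and of 6.4e-05 with the block. Without EPN2 in differentiation medium it was 0.0315, and without the line EPN2 in the block fit 0.0157. RefSeq lists 5 further CYP2C genes within 1 Mb, none of them among the symbols of the table.

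CYP1 enzymes oxidise polycyclic aromatic hydrocarbons and are transcribed under the aryl hydrocarbon receptor. CYP1A1, on chromosome 7 at 58802887 to 58809155, was dominated by the Em line in complete medium, at 279 CPM, while LPN, EPN1 and EPN2 were at 11.0, 15.1 and 4.91 CPM. In differentiation medium the levels were 17.9 CPM in Em, 11.2 in LPN, 1.81 in EPN1 and 1.05 in EPN2. Em, EPN1 and EPN2 lay lower by -3.96, -3.03 and -2.18 on the log2 scale, and LPN hardly differed, at 0.03. CYP1A1 had a log2 fold change of -3.28 with an adjusted p of 0.203 in edgeR, and of -0.35 without Em in complete medium. With the line as a block it was -2.37 ± 0.72 (SE), with an adjusted p of 0.0697 in edgeR. DESeq2 with the line as a block called CYP1A1, at a log2 fold change of -2.35 and an adjusted p of 0.000641. With the medium only, DESeq2 gave CYP1A1 no adjusted p. CYP1A2, next to CYP1A1, had too few counts to be tested, with 23 in Em in complete medium and at most 2 elsewhere.

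CYP1B1 had a different order from CYP1A1. EPN2 in complete medium was highest at 36.2 CPM, Em, LPN and EPN1 were at 7.60, 8.14 and 1.95 CPM, and differentiation medium gave 1.01, 13.0, 0.815 and 7.12 CPM in Em, LPN, EPN1 and EPN2. As with CYP1A1, the line LPN was the exception, with a level above that in complete medium, and CYP1B1 was not called in either edgeR fit, whereas DESeq2 with the line as a block called it at an adjusted p of 0.0366.

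CYP4 enzymes hydroxylate the ends of fatty acid chains. CYP4B1 lay at 8.90 CPM in Em, 52.0 in LPN, 36.2 in EPN1 and 8.79 in EPN2 in complete medium and at 30.8, 90.5, 52.3 and 13.2 CPM in differentiation medium. All 4 lines were higher in differentiation medium, on the log2 scale Em most of all. CYP4B1 had a log2 fold change of 0.82 with an adjusted p of 0.509 in edgeR with the medium only, and 0.92 ± 0.24 (SE) with an adjusted p of 0.0494 with the line as a block. That call was kept without Em, at 0.0447, and lost without LPN, EPN1 or EPN2, at 0.162, 0.115 and 0.0564.

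CYP4F22 makes omega-hydroxylated very long fatty acids for the ceramides of the skin barrier. It went from 2.02 CPM in Em, 45.5 in LPN, 22.2 in EPN1 and 76.0 in EPN2 to 0.784, 14.3, 2.35 and 47.7 CPM. Each line was lower in differentiation medium, and the range between lines was wider than the step between media. Its log2 fold change was -1.16 with an adjusted p of 0.597 in edgeR with the medium only, and -1.72 ± 0.44 (SE) with 0.0474 with the line as a block, a call kept only without EPN2. Of its counts 21.1% came from extension rows beyond the annotated end of the gene. CYP4F8 and CYP4V2 were not called in either edgeR fit, though CYP4V2 passed in DESeq2, at an adjusted p of 0.0395, or 0.0204 with the block, and in edgeR without EPN2 in differentiation medium, at 0.0352, or without the line EPN2 in the block fit, at 0.0168. CYP4F8, known from seminal vesicles, stayed within 0.44 on the log2 scale in every line.

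**Figure D2:**
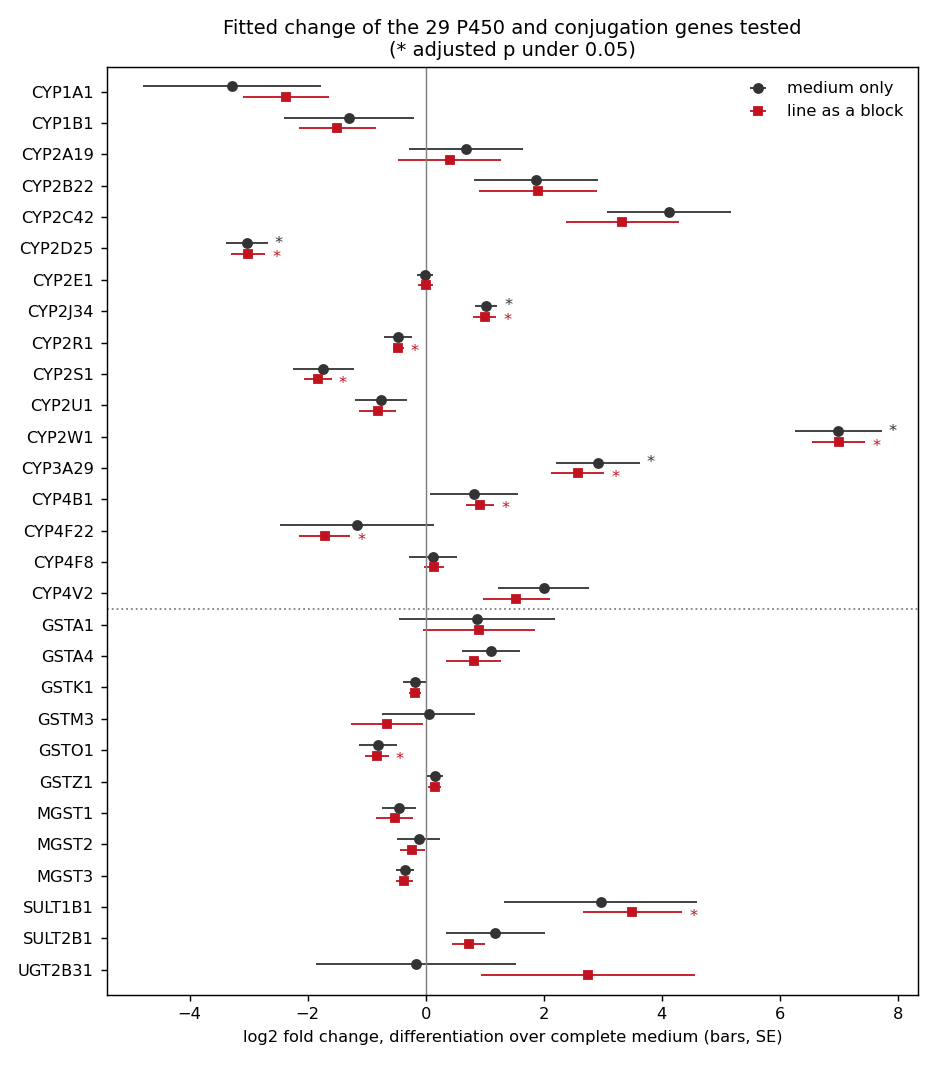
Fitted log2 fold change (x axis, differentiation over complete medium, bars SE) of the 29 genes tested, P450 genes above and conjugation genes below the dotted line, with circles for the fit on the medium only and squares for the fit with the line as a block. Asterisks mark an adjusted p under 0.05, which 4 genes reach with the medium only and 10 with the block, and the value of CYP2W1 depends on the prior count because that gene is at the limit in complete medium.

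Among the conjugation genes the block fit called 2 of 12 tested, 16.7% against 19.9% of all genes, and DESeq2 with the block called GSTO1, SULT1B1, SULT2B1 and UGT2B31. Among the 8 soluble glutathione S-transferases, 6 were tested, none was called with the medium only and GSTO1 was called with the line as a block. GSTO1 reduces dehydroascorbate and mixed disulfides and lies on chromosome 14 at 115206434 to 115216624. It went from 88.9 CPM in Em, 46.3 in LPN, 59.3 in EPN1 and 48.2 in EPN2 to 43.9, 37.2, 39.9 and 17.9 CPM. The media did not overlap, and on the log2 scale the step was largest in EPN2 and smallest in LPN. GSTO1 had a log2 fold change of -0.80 ± 0.32 (SE) with an adjusted p of 0.152 in edgeR, and -0.83 with 0.0435 with the line as a block, a call lost without any 1 of the 4 lines, at 0.0566 to 0.124.

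GSTA1 and GSTA4 are alpha-class enzymes, and GSTA4 clears aldehydes formed when lipids are oxidised. GSTA1, on chromosome 7 at 46538743 to 46550781, stood highest in the Em line, with 756 CPM in complete and 1365 in differentiation medium, against 38.5 to 132 and 20.4 to 202 CPM in the other lines. It was higher in differentiation medium in Em, LPN and EPN1 and lower in EPN2, which went from 132 to 20.4 CPM. Its log2 fold change was 0.87 ± 1.32 (SE), with an adjusted p of 0.701 in edgeR and of 0.517 with the line as a block, or 0.0291 with the block but without EPN2. GSTA4 lay within 42.1 to 47.6 CPM in complete medium and spread to 125 CPM in Em, 57.9 in LPN, 175 in EPN1 and 28.9 in EPN2 in differentiation medium, with no call unless EPN2 was left out of the block fit, where the adjusted p was 0.0448.

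GSTZ1, which isomerises maleylacetoacetate in tyrosine breakdown, was among the steadiest, at 22.7 to 27.3 CPM in complete and 24.6 to 32.3 CPM in differentiation medium. GSTK1, a transferase of mitochondria and peroxisomes, lay at 28.6 to 43.8 and 23.9 to 39.0 CPM and was lower in differentiation medium in 4 of 4 lines, by -0.07 to -0.26 on the log2 scale. The log2 fold change was 0.16 ± 0.13 (SE) for GSTZ1 and -0.18 ± 0.20 (SE) for GSTK1. GSTM3, the mu-class enzyme, parted by line: it went from 19.9 to 5.01 CPM in Em and from 18.8 to 4.80 CPM in EPN1, but from 15.1 to 20.5 CPM in LPN and from 35.1 to 61.6 CPM in EPN2. Its log2 fold change was 0.05 with the medium only and -0.66 with the line as a block, and neither passed the threshold in edgeR, with adjusted p-values of 0.975 and 0.458. GSTO2 and GSTT4 had at most 14 and 8 counts in a library and were not tested.

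The 3 microsomal transferases use glutathione at membranes, MGST1 mainly against lipid peroxides and MGST2 also in leukotriene synthesis. MGST1 lay at 306 CPM in Em, 212 in LPN, 215 in EPN1 and 249 in EPN2 in complete medium and at 105, 282, 150 and 182 CPM in differentiation medium. Em showed the lowest level after the change of medium and LPN the highest. MGST1 had a log2 fold change of -0.45 ± 0.29 (SE) with an adjusted p of 0.353 in edgeR. MGST2 and MGST3 had log2 fold changes of -0.12 and -0.35, and neither was called.

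Of the 8 sulfotransferases only SULT1B1 and SULT2B1 were tested. SULT1B1 sulfates thyroid hormones and small phenols and is known from the gut. In complete medium it had 1 count in Em, 1 in LPN, 12 in EPN1 and 82 in EPN2, and in differentiation medium 167, 2, 114 and 477. LPN was under the limit in both media, and the other 3 lines were higher in differentiation medium. In CPM the means were 0.547 ± 0.880 and 4.30 ± 4.78 (SD, n = 4 each). The adjusted p was 0.277 in edgeR with the medium only, and with the line as a block the log2 fold change was 3.50 ± 0.84 (SE) with an adjusted p of 0.0422, a call kept without Em and lost without LPN, EPN1 or EPN2, at 0.0555 to 0.146.

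SULT2B1 sulfates cholesterol and other sterols and lies on chromosome 6 at 53928248 to 53963443. It was at 10.6 CPM in Em, 22.4 in LPN, 16.7 in EPN1 and 50.8 in EPN2 in complete medium and at 10.9, 43.3, 20.6 and 152 CPM in differentiation medium. EPN2 and LPN were higher in differentiation medium by 1.58 and 0.95 on the log2 scale, and Em hardly differed. SULT2B1 had a log2 fold change of 1.18 ± 0.84 (SE) with an adjusted p of 0.395 in edgeR, and 0.112 with the line as a block.

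UGT2B31, on chromosome 8 at 66310697 to 66323755, was the single glucuronosyltransferase among the 41 genes. Its counts were 264 in Em, 0 in LPN, 4 in EPN1 and 1 in EPN2 in complete medium and 49, 31, 144 and 12 in differentiation medium. Em thus lay lower in differentiation medium while LPN, EPN1 and EPN2 lay higher, and the log2 fold change was -0.17 with the medium only and 2.75 with the line as a block, with adjusted p-values in edgeR of 0.961 and 0.308. The search by symbol also covered other UGT1 and UGT2 genes and the pi-class transferase, but no such symbol was found in the count table. Their levels are therefore not known here.

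The remaining 12 genes had at most 23 counts in any library. They are CYP1A2, CYP2F1, CYP4A24, CYP4F3, GSTO2, GSTT4, SULT1A3, SULT1C2, SULT1C4, SULT2A1, SULT4A1 and SULT6B1. SULT6B1, with 1 count in Em in complete medium, was the only one at or under 3 counts in every library. At this depth no difference between the media could be tested for these genes.

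Counting direction alone, with no threshold, 8 of the 29 genes were higher in differentiation medium in 4 of 4 lines, which is 27.6% against 23.9% of all genes. They were CYP2C42, CYP2J34, CYP2W1, CYP3A29, CYP4B1, GSTZ1, SULT1B1 and SULT2B1, with SULT1B1 in LPN under the limit in both media. A further 6 were lower in 4 of 4 lines, 20.7% against 24.2% of all genes, namely CYP2D25, CYP2R1, CYP2S1, CYP4F22, GSTK1 and GSTO1. Both shares are near the background. The media did not overlap for CYP2C42, CYP2J34 and CYP2W1, which lay higher, 10.3% against 8.82% of all genes. They did not overlap for CYP2D25, CYP2S1 and GSTO1 either, which lay lower, again 10.3%, against 9.96% of all genes.

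Among the lines, 8 genes were over 1.5-fold higher in differentiation medium in a line and over 1.5-fold lower in another. These were CYP1B1, CYP2A19, CYP2B22, CYP4V2, GSTA1, GSTA4, GSTM3 and UGT2B31, and in CYP4V2, GSTA1 and GSTA4 the line that went down was EPN2 alone. A further 6 genes stayed under 1.5-fold in all 4 lines, namely CYP2E1, CYP2R1, CYP4F8, GSTK1, GSTZ1 and MGST3. The shares of all genes with these patterns were not computed, so neither count can be read as a trait of these genes. With 1 culture per line and medium, whether the response to the medium differed between lines could not be tested.

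**Figure D3:**
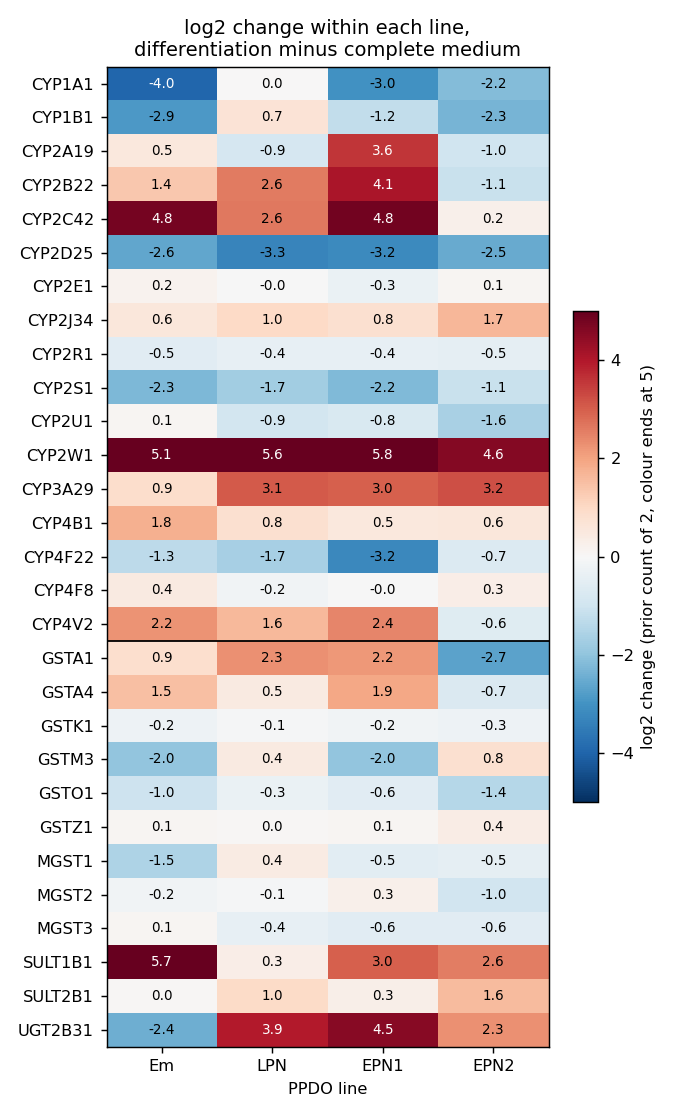
Log2 change from complete to differentiation medium within each of the 4 PPDO lines (columns) for the 29 genes tested (rows, P450 genes above the black line), computed on CPM with a prior count of 2, red for higher and blue for lower in differentiation medium. CYP2W1 and CYP3A29 were over 1.5-fold higher and CYP2D25, CYP2S1 and CYP4F22 over 1.5-fold lower in all 4 lines, while CYP4V2, GSTA1 and GSTA4 were higher in Em, LPN and EPN1 and lower in EPN2.

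Whether the level of these genes depended on the line was asked next, over both media, with the medium as a term in the fit. Each line is a single animal, and only the early postnatal stage has a pair of lines, EPN1 and EPN2. In this test 3 of the 29 genes were called, CYP4B1, CYP4F22 and SULT2B1, which is 10.3% against 5.14% of all genes.

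CYP4B1 was highest in LPN, with a mean over both media of 71.3 CPM, followed by EPN1 at 44.3, Em at 19.9 and EPN2 at 11.0 CPM, a 6.48-fold range. Its adjusted p between lines was 0.0368 in edgeR. CYP4F22 had another order, with EPN2 at 61.9 CPM, LPN at 29.9, EPN1 at 12.3 and Em at 1.40 CPM, a 44.2-fold range and an adjusted p of 0.0365. SULT2B1 followed the order of CYP4F22, at 102 CPM in EPN2, 32.8 in LPN, 18.7 in EPN1 and 10.8 in Em, with an adjusted p of 0.0388. In both media separately the 4 lines kept that order for CYP4F22 and SULT2B1, whereas for CYP4B1 Em and EPN2 were level in complete medium and Em was above EPN2 in differentiation medium. EPN1 and EPN2, the lines of the same stage, lay far apart for all 3 genes. Neighbouring lines in these orders were not tested against each other. Of the 3 calls, CYP4B1 was kept without Em and CYP4F22 without EPN1, and none of the 3 was kept without LPN or without EPN2, where CYP1A1 and, in turn, CYP2S1 and GSTA1 were called instead in edgeR.

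CYP1A1 and GSTA1 had wide ranges between lines as well, 49.8-fold and 13.9-fold with Em highest in both. Their adjusted p between lines was 0.0813 and 0.166 in edgeR, so neither passed the threshold. CYP2E1, GSTZ1 and MGST3 varied least between lines, by 1.23-fold, 1.21-fold and 1.22-fold.

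In differentiation medium Em and EPN1 were the 2 highest of the 8 libraries for CYP2C42, CYP4V2 and GSTA4, which is 10.3% of the 29 genes against 9.02% of all genes, a pattern chosen after the values had been seen. CYP4V2, a fatty acid hydroxylase, was at 10.5 CPM in Em, 8.19 in EPN1, 4.13 in LPN and 0.537 in EPN2 in that medium, and at 0.837 to 2.21 CPM in complete medium. Genes of hepatocytes were highest in the same libraries: the 11 hepatocyte genes in the table summed to 457 CPM in Em and 438 CPM in EPN1 in differentiation medium, 65.3 in LPN and 1.68 in EPN2, and to 1.63 to 48.3 CPM in complete medium. The summed enterocyte, duct, acinar and endothelium markers were highest in these libraries too, at 405 and 280, 15076 and 10597, 320 and 301, and 44.5 and 44.7 CPM in Em and EPN1. Of the hepatocyte genes, SERPINA1 and APOA1 held most of the sum in Em and EPN1, while 3 of the 11 genes were at or under 3 counts in every library and ALB did not exceed 22 counts. The part of any of these markers in the levels of CYP2C42, CYP4V2 and GSTA4 was not tested.

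**Figure D4:**
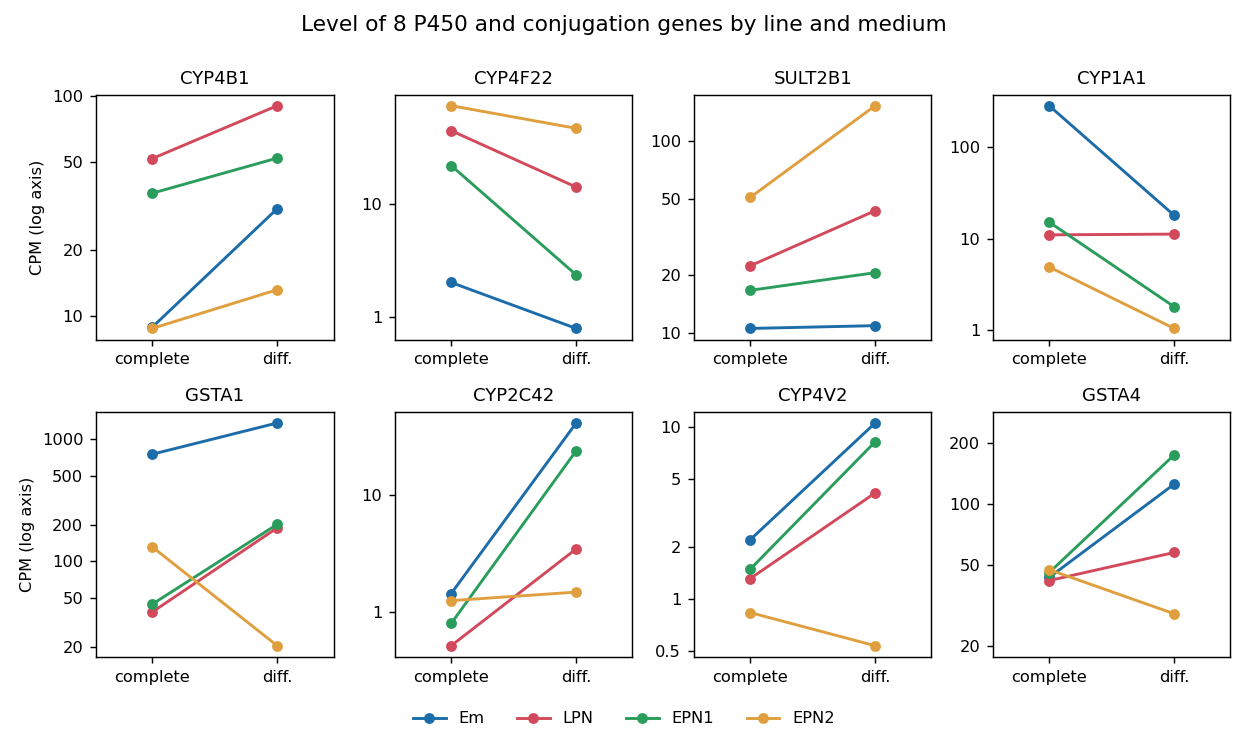
Level in CPM (log axis) of 8 genes in complete and differentiation medium (diff.), with 1 point per library and a connecting line per PPDO line. CYP4B1, CYP4F22 and SULT2B1 are those called between lines, CYP1A1 and GSTA1 are highest in Em in both media, and CYP2C42, CYP4V2 and GSTA4 are highest in Em and EPN1 in differentiation medium.

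The enzymes above depend on electron donors, on the supply of glutathione, UDP-glucuronic acid and active sulfate, on nuclear receptors and on exporters, and lists of such genes were followed in the same fits. Of 99 symbols, 86 were in the table, standing for 88 genes of which 78 were tested. With the medium only 4 of the 78 were called, 5.13% against the 6.97% of all genes given above, with FMO4 higher and GCLC, EPHX1 and ABCC3 lower. With the line as a block 17 were called, 21.8% against the 19.9% of all genes, 7 higher and 10 lower. Both shares are near the background.

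POR, the reductase that passes electrons to all microsomal P450 enzymes, went from 81.9 CPM in Em, 44.8 in LPN, 49.9 in EPN1 and 92.4 in EPN2 to 127, 105, 87.1 and 235 CPM. It was higher in each line, with a log2 fold change of 1.04 and an adjusted p of 0.119 in edgeR, and of 1.00 with 0.0169 with the line as a block. CYB5R3, the reductase of cytochrome b5, also rose with the block, by 0.88 on the log2 scale, with an adjusted p of 0.0252. They were 2 of the 7 electron donor genes tested, 28.6% against 19.9% of all genes.

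Genes of cosubstrate supply that were called fell. GCLC, the catalytic subunit of the rate-limiting enzyme of glutathione synthesis, went from 318 CPM in Em, 297 in LPN, 313 in EPN1 and 243 in EPN2 to 151, 211, 170 and 125 CPM, with no overlap and a log2 fold change of -0.83 ± 0.18 (SE) at an adjusted p of 0.0382 in edgeR. With the block UGP2, which makes UDP-glucose, and BPNT1, which removes a by-product of sulfation, fell as well, by -0.76 and -0.45 on the log2 scale. In all, 3 of the 14 genes tested in this list were called with the block, 21.4% and so near the 19.9% of all genes.

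Among other oxidising and hydrolysing enzymes, EPHX1, the microsomal epoxide hydrolase that acts on products of P450 enzymes, fell from 61.3 to 65.8 CPM in complete medium to 32.5 to 43.6 CPM in differentiation medium, with a log2 fold change of -0.73 ± 0.12 (SE) and an adjusted p of 0.0202 in edgeR. FMO4, a flavin-containing monooxygenase, lay between 14.5 and 23.0 CPM in complete and between 31.4 and 67.5 CPM in differentiation medium, and rose by 1.23 ± 0.27 (SE) on the log2 scale with an adjusted p of 0.0384. With the block ADH5 rose too, and the carboxylesterase CES1, the aldehyde oxidase AOX1, the carbonyl reductase CBR1 and the lactonases PON2 and PON3 fell, by -1.47 to -3.13 on the log2 scale. That makes 8 of 21 genes of this list called with the block, 38.1% against 19.9% of all genes, 2 higher and 6 lower. Of these, CBR1 and PON3 had few counts in differentiation medium, at 3 to 30 and 1 to 66 in a library.

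ABCC3, which exports glucuronides and other conjugates, went from 714 CPM in Em, 572 in LPN, 833 in EPN1 and 799 in EPN2 to 329, 167, 290 and 119 CPM, with no overlap between the media. Its log2 fold change was -1.69 ± 0.33 (SE) with an adjusted p of 0.0294 in edgeR. Of the 8 export genes tested it was the only one called in either fit. That is 12.5%, against 6.97% of all genes with the medium only and 19.9% with the block. None of the 25 regulators tested was called with the medium only. With the line as a block CEBPA, PPARD and KEAP1 rose, by 1.37, 0.60 and 0.56 on the log2 scale. This is 12% of the regulators, below the 19.9% of all genes. Leaving out single libraries took the number of these partner genes called with the medium only to between 0 and 8, and the block fit called none of them without LPN or without EPN1.

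**Figure D5:**
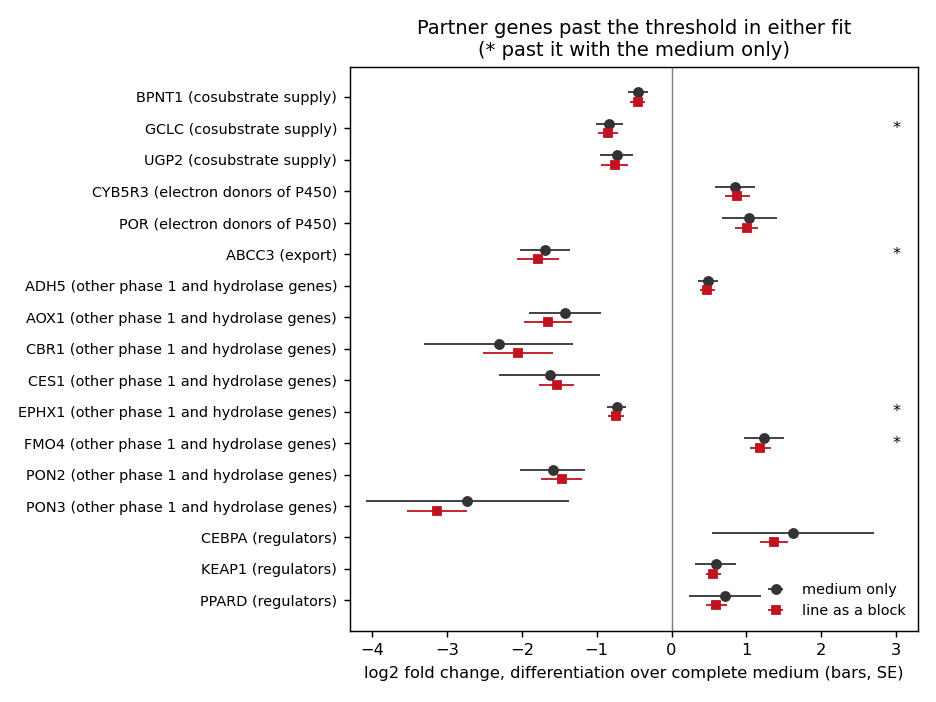
Fitted log2 fold change (x axis, differentiation over complete medium, bars SE) of the 17 partner genes past the threshold in either fit, grouped by list, with circles for the medium only and squares for the line as a block. Asterisks mark GCLC, ABCC3, EPHX1 and FMO4, which passed with the medium only, and the 10 genes of cosubstrate supply, export and other enzymes that were called lower lie left of 0.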

How the data were processed

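Poly(A) RNA of the 8 cultures was sequenced in pairs by the authors, and salmon, run within an nf-core pipeline, quantified the reads on a pig genome with custom annotation. The deposited table holds estimated counts per gene, labelled raw, in 56060 rows, and the authors' differential analysis is stated to use counts scaled by gene length. Whether the deposited values are scaled cannot be read from them, and 78.6% of those above 0 are whole. The submitters' processing notes name Sscrofa11.1, and gene positions, known for 27 of the 41 genes by symbol, are those of RefSeq for that assembly. Media were taken from sample titles and lines from the column headers, since the records' replicate numbers name no line. The labels' treatment entry is the same for all 8 records.

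Rows of a gene, with the suffixes -iso and -ext removed, were summed and rounded. Reporter transgenes (8 rows, 0.00142% of the counts) were left out. Tests used R 4.3.3 and edgeR 4.0.16 with TMM (factors 0.935 to 1.06), the default expression filter and the quasi-likelihood test, with Benjamini-Hochberg adjustment over 14475 genes and a threshold of 0.05. DESeq2 1.42.0, other scalings and filters, exclusion of the -ext rows and exclusion of each library or line were alternatives. The replicate block was the line, because both cultures of a line come from 1 animal. After removal of the medium means, libraries of the same line correlated at 0.400 to 0.657 and those of different lines at -0.479 to 0.242. With 1 culture per line and medium, p-values of the fit with the medium only measure the spread between the 4 lines. In the block fit and the test between lines they rest on the spread left after line and medium are fitted. That is how far the change with the medium differed between lines.

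Symbols matched CYP1 to CYP4, UGT1 or UGT2, GST classes, MGST and SULT. Described in full are genes called for the medium in either edgeR fit, the gene with the highest mean CPM of each family, and those called between lines; CYP1B1, CYP2C42, CYP4V2 and GSTA4 were added after their values had been seen. Genes and lists were chosen with earlier results of these data known.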

Additional observations from a re-analysis of the deposited data

Results flagged for a closer look

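In each medium a line was looked for that stands apart from the other 3 by Dixon's test, which sets the gap to the nearest neighbour against the range of all 4. This applied to 9 of 58 combinations of gene and medium. The share over all genes was not computed. A chance rate of about 1 in 20 holds for normally distributed values, and the test was run on CPM without a log scale. No excess over chance can therefore be read from this count.

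Em stood apart in complete medium for CYP1A1, at 279 CPM against 4.91 to 15.1 in the other lines, for GSTA1, at 756 CPM against 38.5 to 132, and for UGT2B31, at 5.72 CPM against 0 to 0.0962. For GSTA1 it also stood apart in differentiation medium, at 1365 CPM against 20.4 to 202. EPN2 stood apart in complete medium for CYP2B22, at 2.55 CPM against 0.173 to 0.561, and for SULT1B1, at 1.85 CPM against 0.0217 to 0.289. In differentiation medium it did so for CYP2J34, at 159 CPM against 94.1 to 104. EPN1 stood apart for CYP4F8 in complete medium, at 19.1 CPM against 7.80 to 8.32. The value of 0 for CYP2W1 in EPN2 in complete medium differs from the other 3 lines by a single count, and all are under the limit of 3 counts.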

How the results depend on the processing

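The number of the 41 genes called for the medium was 4 with the medium only, 10 with the line as a replicate block, 7 with DESeq2 and 16 with DESeq2 and the block, and 2 to 5 when single libraries were left out (0 to 11 when single lines were left out of the block fit). For the partner genes it was 4, 17, 13 and 33, 2 without an expression filter, and 0 to 8 without single libraries (0 to 25 without single lines). Between lines it was 3, or 15 with DESeq2's likelihood ratio test, and 1 to 2 without a line, of which none was among the 3 without LPN or without EPN2. Calls in the whole table moved in the same way, from 1009 with the medium only to 2884, 3024 and 5594 with the block, DESeq2 and both. They numbered 70 to 1199 without single libraries, and 8 to 2989 without single lines in the block fit. Between lines, calls in the whole table went from 744 in edgeR to 4691 with DESeq2's likelihood ratio test, and to 104 to 379 without a line. CYP3A29 was not called without an expression filter, at an adjusted p of 0.0604 in edgeR. GSTM3 turned to -0.66 and -0.65 on the log2 scale with the block in edgeR and DESeq2, and UGT2B31 to 2.75 and 3.81. Without single libraries or lines the log2 fold change ranged from -1.20 to 0.39 for GSTM3, from -1.17 to 5.01 for UGT2B31, from -0.82 to 2.65 for GSTA1 and from -0.0071 to 1.78 for SULT2B1. The cause was not tested. Of 418 refitted values of named genes, 347 kept their direction and their side of the threshold, 31 newly passed it, 20 no longer did and 20 changed direction. Levels near 3 counts, as for CYP2W1 and SULT1B1 in complete medium, limit what a fold can show.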

Other observations

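A gene without a symbol in the count table is named SULT1E1, the oestrogen sulfotransferase, in a separate table of gene names (ENSSSCG00000039341). It was noticed after its values had been seen and is not among the 41 genes. Its level was 8.12 CPM in Em, 3.31 in LPN, 1.35 in EPN1 and 30.8 in EPN2 in complete medium and 40.0, 31.4, 36.7 and 133 CPM in differentiation medium, so that the media did not overlap. The log2 fold change was 2.47 ± 0.97 (SE) with an adjusted p of 0.151 in edgeR, and 3.03 with an adjusted p of 0.0186 with the line as a block. SULT1C3, named in the same way, had at most 21 counts in a library.

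NR1I2 encodes the pregnane X receptor, a regulator of CYP3A genes. In differentiation medium it was at 14.3 CPM in Em, 18.1 in LPN, 23.7 in EPN1 and 0.374 in EPN2, and CYP3A29 at 89.6, 1199, 676 and 694 CPM in the same order. In complete medium NR1I2 lay at 7.12 to 19.0 CPM. A relation between these genes was not tested.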
